A study of Bos taurus with 23 samples.

Results

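The 200 genes described here were present in every peripheral white blood cell (PWBC) library of one experimental station and in 3 of the 12 libraries of the other, and close to the limit of counting in the remaining 9. They were chosen from the counts themselves. A gene entered when the authors retained it in station A and not in station B, when it was in neither of the study's lists of genes associated with pregnancy outcome, and when it exceeded 1 CPM (counts of a gene scaled to a common library total) in the station B libraries SL253804, SL253808 and SL253811 and in no other library of that station. Of 24616 counted genes, 1706 were retained in station A only, 1043 of these met the conditions on station B, and 1042 remained without the listed genes. The 200 with the greatest mean CPM over the 11 station A libraries were kept. The listed gene that was removed, TPPP (ENSBTAG00000047116), had a mean of 3.42 CPM and would have held rank 719, so that exclusion did not touch the 200.

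Blood came from Angus-Simmental heifers in their first breeding season, at fixed-time artificial insemination (AI), with 1 library per heifer. Before insemination all heifers had received the same synchronization with GnRH, a progesterone insert and prostaglandin. In station A, 6 heifers conceived to AI (AI-pregnant) and 5 conceived later to a bull, by natural breeding (NB-pregnant). In station B, 6 were AI-pregnant and the other 6 did not conceive (non-pregnant). SL253804 and SL253811 were from non-pregnant heifers and SL253808 was from an AI-pregnant heifer, so the other 9 libraries of station B were from 5 AI-pregnant and 4 non-pregnant heifers.

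White blood cells are a mixture of granulocytes, lymphocytes and monocytes, whose proportions shift with stress, infection and reproductive state, and whose transcripts are counted together once RNA is drawn from the whole pellet. Red blood cells are lysed before extraction, but immature red cells and platelets can leave some RNA. In such a pellet fewer cells of a type and less RNA per cell cannot be told apart. The study's methods describe the same blood handling, library preparation, sequencing and counting for the heifers of both stations. They do not say whether batches or settings differed between the libraries compared below, and the part of this in the levels was not tested. A larger part of the aligned pairs was counted in each of SL253804, SL253808 and SL253811 than in any other library of station B. The reason for this difference, and its part in the levels, was not tested either. The deposited tables give Ensembl identifiers and do not pair them with symbols. The table of 37063 bovine RefSeq genes used here holds no Ensembl identifiers, so no match was possible, the genes are given by identifier, and neither their functions nor their pathways are described.

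Total counts were 4826003 to 20053283 per library in station A, 8487350 to 20434401 in the 3 libraries of the rule and 5577129 to 9330573 in the other 9. A value of 1 CPM in these 9 thus stood for 5.58 to 9.33 read pairs, and a count of 0 allowed a level of up to 0.321 to 0.538 CPM (3 counts of the total, counting error only). Of 75 marker genes listed for blood cell types, 2 could be tied to an identifier, through the study's own gene lists. LYZ, a lysozyme listed here as a monocyte marker, was detected in every library, at 684 to 1671 CPM in station A, 455 to 1031 CPM in the 3 libraries and 730 to 2146 CPM in the 9. ALAS2, an enzyme of haem synthesis in immature red cells, was at 14.7 to 142 CPM in station A, at 16.8, 4.95 and 44.3 CPM in SL253804, SL253808 and SL253811, and at 1.42 to 9.50 CPM in the 9. Of the 3 libraries, SL253808 lay within the range of ALAS2 in the 9, while SL253804 and SL253811 lay above it, as did every station A library. The part of immature red cells in the levels below was not tested.

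**Figure D1:**
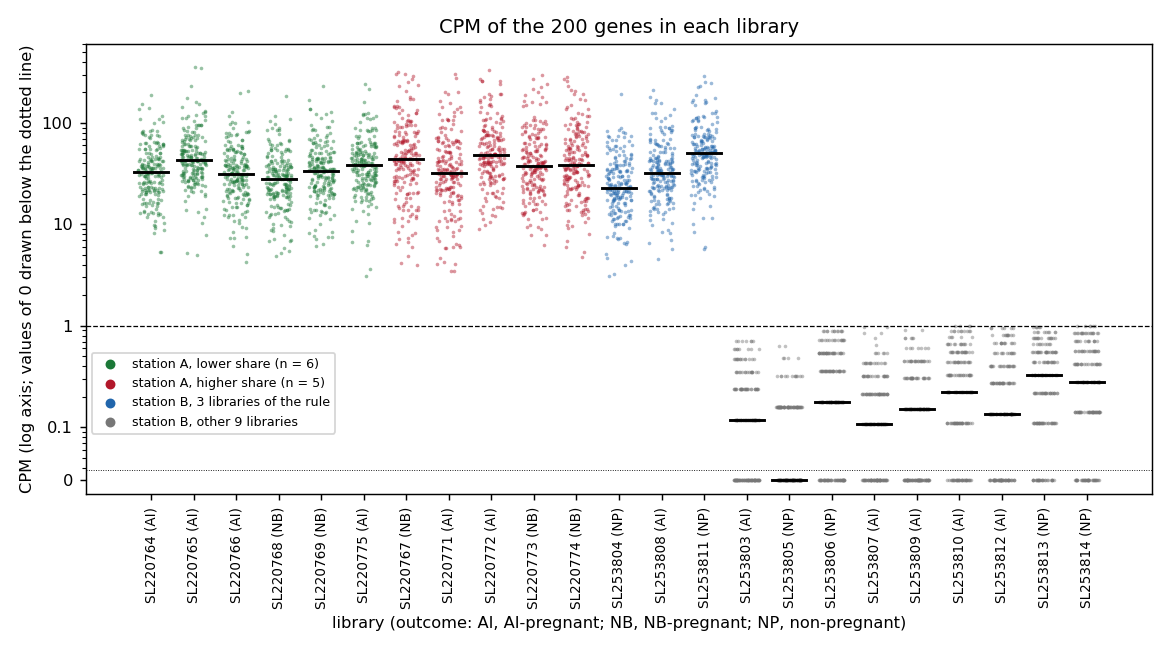
CPM of the 200 genes (1 point per gene, log axis, values of 0 drawn below the dotted line) in each of the 23 libraries, with the median of the genes as a black bar and 1 CPM as a dashed line. All genes lie above 1 CPM in the 11 station A libraries and in 3 libraries of station B, with medians of 23.0 to 50.1 CPM, and in the other 9 libraries the medians are 0 to 0.327 CPM.

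Levels in station A, in the 3 libraries and in the 9 chose the genes, and they are given as a description without a test. Mean levels in station A ran from 20.6 to 217 CPM, with a median of 36.7 CPM over the 200 genes. More than 1 CPM in 6 libraries was needed for a gene to be retained. All 200 exceeded 1 CPM in all 11 libraries, as did 10533 of the 12128 retained genes, and the rank by mean CPM favours this. Of the 200, 162 exceeded 10 CPM in all 11. The lowest single value in station A was 3.09 CPM. Per kilobase, as FPKM (CPM divided by gene length), the median of the station A means was 25.6 for the 200 genes and 14.9 over all 12128 retained genes. By mean FPKM, 158 of the 200 lay above the median retained gene and 16 among the highest 10%, while the lowest, at 3.19 FPKM, was under the lower quartile of the retained genes (5.01 FPKM). By mean CPM, the most abundant of the 200 was at rank 857 of the retained genes.

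In SL253804, SL253808 and SL253811 the 200 genes were again well above the limit of the rule. Their lowest value in any of these libraries was 3.07 CPM, and 181 of them exceeded 10 CPM in all 3. The median of their means was 35.4 CPM. The mean of the 3 libraries was within 2-fold of the station A mean for 170 genes, and it was the lower of both means for 115. These libraries were not alike in level: 191 of the 200 genes were highest in SL253811, and 170 were lowest in SL253804. Summed over the 200 genes, the level was 5850 CPM in SL253804, 8415 CPM in SL253808 and 12285 CPM in SL253811, against 6564 to 12789 CPM in station A.

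In the other 9 libraries of station B the same sum was 16.6 to 71.3 CPM, which is 0.173% to 0.744% of the mean sum in station A. Over 68961974 pairs counted in these 9 libraries, 3458 fell on the 200 genes. Of the 1800 values, 536 (29.8%) were 0. A gene had a median of 16 pairs over all 9 libraries together and at most 43. The library with the least was SL253805, from a non-pregnant heifer, where 122 genes had no pair, and the library with the most was SL253813, also from a non-pregnant heifer, where 29 had none. For 76 genes the highest of the 9 values was under 0.5 CPM, and for 23 it was over 0.9 CPM, just inside the limit of the rule. Even so, all but 1 of the 200 genes had at least 1 pair there.

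The mean of the 3 libraries exceeded that of the 9 by a median of 188-fold, and the mean of station A exceeded it by a median of 195-fold. The smallest difference between the 3 and the 9 was 15.7-fold, and 152 genes differed by 100-fold or more. For 19 genes no more than 3 pairs were counted in the 9 libraries together. Among the 181 genes with more, the greatest difference was 773-fold, for ENSBTAG00000010497, which had 5 pairs. ENSBTAG00000004268 had no pair in the 9 libraries, where 3 pairs over the group stand for 0.0435 CPM, and it was at least 705-fold higher in the 3 libraries and at least 782-fold higher in station A.

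**Figure D2:**
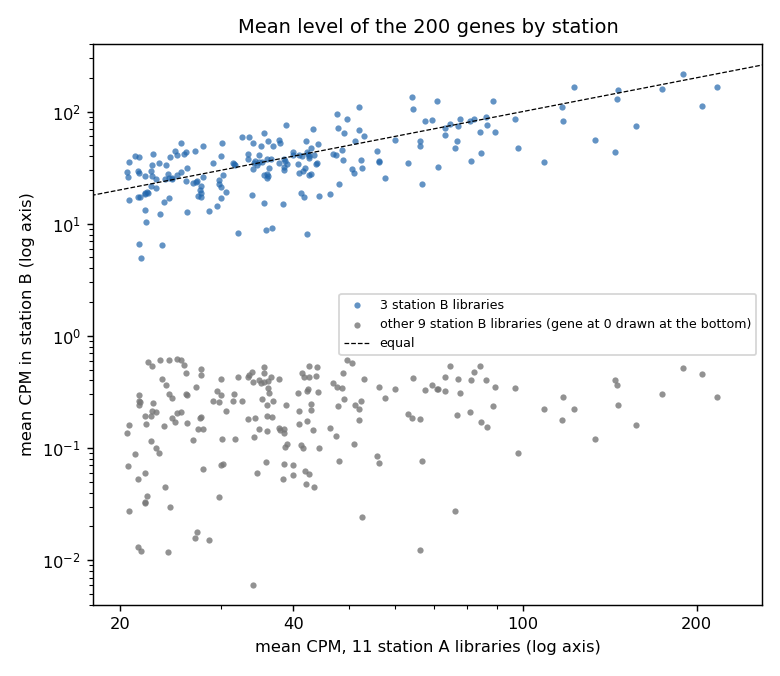
Mean CPM of each of the 200 genes in station A (x axis) against its mean in the 3 station B libraries of the rule and in the other 9 (y axis), both axes logarithmic, with equality as a dashed line. The 3 libraries lie around the line, at 4.96 to 216 CPM, and the 9 lie at 0.626 CPM or less for every gene.

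The most abundant gene of the 200 was ENSBTAG00000048122, with a station A mean of 217 CPM ± 73.4 (SD, n = 11). Its lowest, median and highest values were 187, 223 and 357 CPM in the AI-pregnant heifers of station A, and its 5 values in the NB-pregnant heifers were 301, 89.4, 169, 159 and 211 CPM. In station B it was at 84.7 CPM in SL253804, 121 CPM in SL253808 and 290 CPM in SL253811, and its lowest, median and highest values in the 9 were 0, 0.218 and 0.717 CPM. The outcome groups of station A overlapped, and the lowest library outside the 9 was still over 100 times the highest of the 9. The next gene, ENSBTAG00000000550, had a station A mean of 204 CPM ± 100.3 (SD, n = 11), was at 74.6, 85.1 and 177 CPM in the 3 libraries, and reached no more than 0.882 CPM in the 9. The gene with the greatest level per kilobase was ENSBTAG00000031800, at a mean of 385 FPKM in station A, with 136 to 348 CPM there, 192, 210 and 246 CPM in the 3 libraries and at most 0.987 CPM in the 9. For this gene the 3 libraries were above the station A mean of 189 CPM, while for ENSBTAG00000000550 they were below it.

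On the log2 scale with 0.1 CPM added to each mean, the ratio of the 9 to the 3 libraries had a median of -6.95 over the 200 genes and ran from -9.00 to -3.68. The lowest belonged to ENSBTAG00000001931, at 81.4, 182 and 230 CPM in the 3 libraries and 0 to 0.677 CPM in the 9, with 16 pairs in all. The next, ENSBTAG00000047958, was at 33.6, 56.0 and 72.8 CPM in the 3, and 1 pair was counted on it in the 9 together, a ratio of the mean of the 3 to the pooled level of the 9 of 3733. Its exact Poisson interval (95%) of 669.9 to 147426 covers the counting error of that pair only and takes the mean of the 3 as fixed. The highest ratios belonged to ENSBTAG00000015104, at 6.53, 7.07 and 5.68 CPM in the 3 libraries and up to 0.909 CPM in the 9, and to ENSBTAG00000019517, at 6.69, 6.48 and 11.7 CPM in the 3 and up to 0.812 CPM in the 9. Both had low levels in the 3 libraries, and neither had a pair in every one of the 9.

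Differences between the 3 and the 9 libraries were not limited to the 200 genes. Over all 12128 genes retained in station A the median log2 ratio of the 9 to the 3 libraries was -0.37, and over the 7153 of them with a station A mean at or above that of the last of the 200 it was -0.30. Of these 7153 genes, 2567 (35.9%) differed by less than 2-fold between the 9 and the 3 libraries, 1603 were more than 2-fold higher in the 9, and 979 had a log2 ratio under -4, as did all but 2 of the 200. For 43.8% of the retained genes all 3 libraries were above all 9, which the rule itself requires of the 200. Separation of the 3 libraries from the 9 was thus common. A log2 ratio under -6 was found for 285 of the 7153 genes, 162 of the 200 among them. The rule drew on these same values, so low ratios among the 200 follow in part from the choice.

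**Figure D3:**
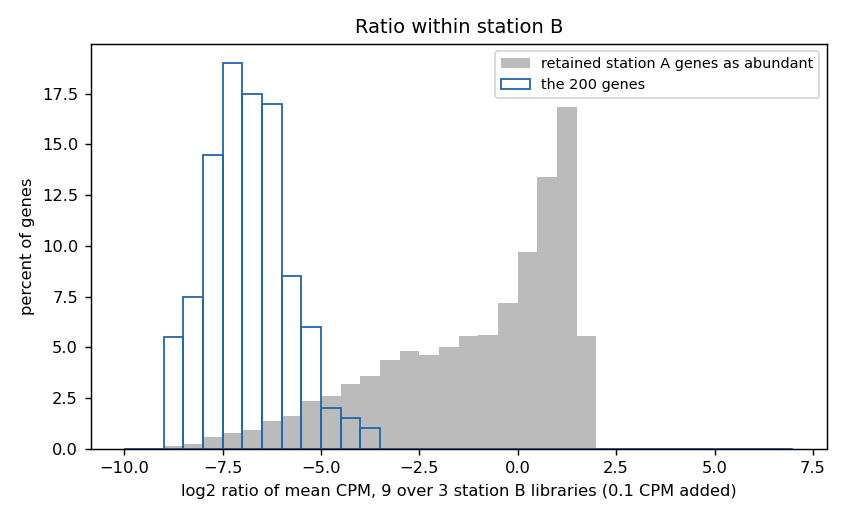
Percent of genes (y axis) by log2 ratio of mean CPM in the 9 over the 3 station B libraries (x axis, 0.1 CPM added), for the 200 genes (outline) and the 7153 retained station A genes at least as abundant, the 200 included (grey). The 200 genes lie between -9.00 and -3.68, while the median of the 7153 genes is -0.30.

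Near the limit of the rank the levels were close. The last 2 genes inside were ENSBTAG00000019018 and ENSBTAG00000010927, with station A means of 20.65 and 20.58 CPM, and the first 2 outside were ENSBTAG00000026394 and ENSBTAG00000009782, with 20.43 and 20.32 CPM. A further 97 genes retained in station A only were as abundant there and exceeded 1 CPM in all 3 libraries, but were left out because 1 or 2 of the 9 libraries also exceeded 1 CPM. For 55 of them a single library did so. In these 97 genes the 3 libraries exceeded the 9 by a median of 59.9-fold.

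Among the 11 station A libraries the 200 genes followed 2 different profiles. The libraries differed in the share of counts taken by the 100 most abundant genes, which was 21.7% to 26.9% in SL220767, SL220771, SL220772, SL220773 and SL220774 and 11.9% to 16.0% in the other 6. In station B this share was 12.6% to 17.0% in all 12 libraries. These sets of libraries were read from the counts and are not groups of the study: the 5 with the higher share were from 2 AI-pregnant and 3 NB-pregnant heifers, and the 6 with the lower share from 4 and 2. The 5 also had fewer counts, 4826003 to 6105250, against 6832237 to 20053283 in the 6, and total counts and profile cannot be told apart. By pairs sequenced the sets overlapped, and SL220768, with the lower share, had fewer than every library with the higher share. A smaller part of the aligned pairs was counted in the 5 than in the 6, apart from SL220765, which lay within the range of the 5. The reason was not tested. ALAS2 was at 17.9 to 142 CPM in the 5 and at 14.7 to 102 CPM in the 6. The summed level of the 200 genes was 9099 to 12789 CPM in the 5 and 6564 to 10794 CPM in the 6, so the sets overlapped in the sum.

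Gene by gene, the sets were further apart. All 5 libraries with the higher share were above all 6 others for 67 of the 200 genes, against 12.1% of the retained genes, and below all 6 for 35, against 37.4%, while 98 genes overlapped. The mean of the 5 over the mean of the 6 had a median of 1.31 over the 200 genes and 0.683 over all retained genes, or 0.39 and -0.55 on the log2 scale. The median of all genes moved to -0.31 with TMM effective library sizes and to -0.36 with totals that leave out the 100 most abundant genes, where that of the 200 genes was 0.62 and 0.58, so the median of the 200 lay above that of the retained genes under each of these scalings. In the direction of single genes they were divided, 51 being more than 2-fold higher and 34 more than 2-fold lower in the 5 libraries. The mean level over station A helped to choose the genes, and a gene that was high in the 5 libraries alone could enter by it, so these counts are also a description.

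ENSBTAG00000038577 had the greatest spread in station A, with a coefficient of variation (CV) of 97.3%. It was at 5.27 to 11.7 CPM in the 6 libraries with the lower share and at 65.7 to 108 CPM in the 5 others, without overlap, and at 4.69, 4.59 and 15.1 CPM in the 3 libraries of station B. ENSBTAG00000017181, with a CV of 94.9%, had the same order, at 6.25 to 10.4 CPM in the 6, 42.3 to 89.7 CPM in the 5 and 5.15, 9.90 and 11.5 CPM in the 3. ENSBTAG00000010927 went the other way, at 19.2 to 43.5 CPM in the 6, 4.07 to 9.77 CPM in the 5 and 17.7, 31.5 and 37.2 CPM in the 3. In each of these genes the station B libraries SL253804, SL253808 and SL253811 lay nearer to the 6 than to the 5.

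The steadiest genes were ENSBTAG00000012200 and ENSBTAG00000012512, with CVs of 12.6% and 12.9%. ENSBTAG00000012200 was at 38.0 to 58.6 CPM in station A and at 35.3, 43.5 and 56.8 CPM in the 3 libraries of station B, and its lowest, median and highest values in the 9 were 0, 0.321 and 0.705 CPM. ENSBTAG00000012512 was at 32.7 to 49.6 CPM in station A, at 27.5, 32.7 and 44.4 CPM in the 3 and at 0 to 0.948 CPM in the 9. The median CV over the 200 genes was 38.1%.

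Across the 200 genes, Spearman's rho between the mean CPM of the 3 station B libraries and that of the 6 station A libraries with the lower share was 0.949, and with that of the 5 with the higher share it was 0.195. Within station A the means of the 6 and of the 5 had a rho of 0.241. Between single libraries, rho was 0.676 to 0.956 within the 6, 0.912 to 0.950 within the 5 and 0.101 to 0.505 between a library of one set and a library of the other. The pairs of SL253804, SL253808 and SL253811 had rho of 0.841 to 0.931. The pooled level in the 9 libraries had a rho of 0.210 with the mean of the 3. The rule held every value in the 9 at 1 CPM or less, and a gene had a median of 16 pairs there. Both limit this rho, so nothing is read from its low value. These values are across genes of the same libraries, which are not independent replicates, and the points share depth and gene length, so no p is given.

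**Figure D4:**
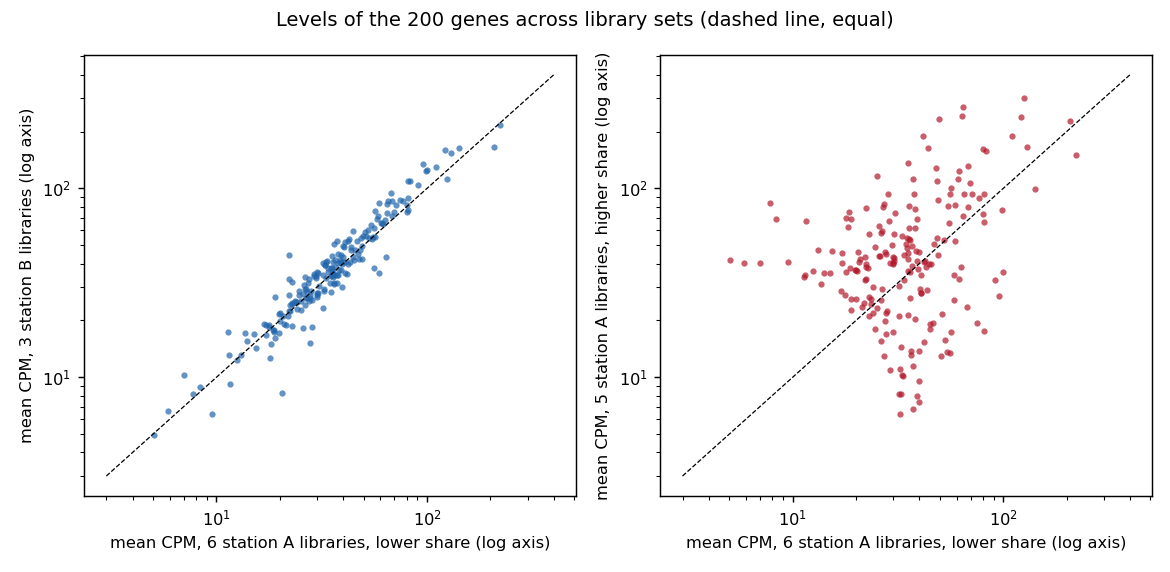
Mean CPM of each of the 200 genes in the 6 station A libraries with the lower share of counts in the 100 most abundant genes (x axes) against its mean in the 3 station B libraries (left) and in the 5 station A libraries with the higher share (right), all axes logarithmic, with equality as a dashed line. The points lie along the line on the left (rho 0.949) and spread widely on the right (rho 0.241).

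Gene length, which the rule did not use directly, was recovered from the counts and the FPKM of station A. The 200 genes had a median length of 1548 bases, and 55 of them (27.5%) were under 1000 bases. Among all genes retained in station A the median was 1963 bases and 17.1% were under 1000, and among the 6856 genes retained in both stations and as abundant as the 200 in station A the median was 2150 bases and 12.8% were under 1000. For the 1706 genes that station A alone retained, the median was 1570 bases. The shortest of the 200 was ENSBTAG00000045039, at 142 bases, and the longest was ENSBTAG00000019785, at 12367 bases. CPM is not divided by length, so a rank by mean CPM favours long genes.

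The rule left out the genes that the study associated with outcome in these heifers, although the 200 would have been the same with them. The difference between outcomes in station A did not otherwise enter the choice, and it was tested with edgeR's quasi-likelihood test over all 12128 retained genes, with AI-pregnant heifers as the reference. None of the 200 genes had an adjusted p under 0.05, against 0% of all genes. At an unadjusted p under 0.05 there were 0 of the 200 genes, against 0.833% of all genes. That share is far under the threshold itself, so this fit called few genes of any kind, and its 0 is not read as absence of a difference. With the first principal component of the libraries as a covariate there were 6 of the 200, against 691 of all 12128 genes. By the rule of the study, p of 0.01 or less in both edgeR's likelihood ratio test and DESeq2, 0.148% of all genes were called, and 0 of the 200. The choice left out genes called in this way, although that step did not change the 200. Nothing is read from this count of 0, since the share over all genes is itself so small. DESeq2 alone gave 0 of the 200 with an adjusted p under 0.05, against 0.0165% of all genes, and 1 with an unadjusted p under 0.05, against 1.54%. The log2 fold change was above 0 for 125 of the 200 genes and below 0 for 75. It ran from -0.74 to 1.30, with a median of 0.13, where the median over all genes was 0.01 and the median standard error of the 200 was 0.38. Without normalization factors both medians fell, to -0.05 for the 200 genes and -0.12 for all genes, so the sign of the median of the 200 depended on the scaling.

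Summed over the 200 genes, AI-pregnant heifers of station A had 9490 CPM ± 1986 (SD, n = 6). NB-pregnant heifers had 9670 CPM ± 2338 (SD, n = 5), so the means differed by less than the spread of either group. The AI-pregnant heifers ran from 7532 to 12789 CPM with a median of 9008, and the NB-pregnant heifers were at 12328, 6564, 7986, 10585 and 10887 CPM. The lowest NB-pregnant heifers, SL220768 and SL220769, were those whose libraries had the lower share of counts in the 100 most abundant genes.

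Of the genes higher in NB-pregnant heifers, the smallest p in edgeR's quasi-likelihood test belonged to ENSBTAG00000021041. Its lowest, median and highest values were 24.9, 27.1 and 35.4 CPM in AI-pregnant heifers, and the NB-pregnant heifers were at 50.7, 30.6, 18.3, 44.8 and 56.8 CPM. The log2 fold change was 0.70 ± 0.37 (SE), with an unadjusted p of 0.0843 and an adjusted p of 0.999 from edgeR, and the groups overlapped. ENSBTAG00000007660 followed, at 25.4, 36.0 and 47.7 CPM in AI-pregnant heifers and 48.7, 35.4, 34.4, 50.4 and 40.4 CPM in NB-pregnant heifers, with a log2 fold change of 0.42 ± 0.27 (SE) and the same adjusted p from edgeR. Its groups overlapped too.

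In the other direction, ENSBTAG00000010521 was at 38.6, 60.0 and 89.4 CPM (lowest, median and highest) in AI-pregnant and at 43.7, 30.7, 50.0, 39.5 and 30.1 CPM in NB-pregnant heifers, with a log2 fold change of -0.50 ± 0.25 (SE) and an unadjusted p of 0.0660 from edgeR, the smallest of the 200 genes. ENSBTAG00000030540 was at 19.2, 27.2 and 41.0 CPM in AI-pregnant and at 17.9, 22.1, 29.4, 13.2 and 13.7 CPM in NB-pregnant heifers, with a log2 fold change of -0.43 ± 0.22 (SE). For both the adjusted p from edgeR was 0.999, and the groups overlapped.

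Within the 6 libraries with the lower share of counts in the 100 most abundant genes, 4 AI-pregnant and 2 NB-pregnant, the median log2 fold change of the 200 genes was -0.34, and 14 of the 200 were lower in NB-pregnant heifers at an unadjusted p under 0.05, against 1.93% of all genes. None had an adjusted p under 0.05 in edgeR. SL220768, from 1 of these 2 NB-pregnant heifers, held the lowest station A value for 83 of the 200 genes. Within the 5 libraries with the higher share, 2 and 3 heifers, the median was 0.08, with 4 genes higher at an unadjusted p under 0.05, against 0.899% of all genes, and 1 lower, against 1.23%. None of the 200 had an adjusted p under 0.05 there in edgeR, against 0.0247%. With the set of libraries as a covariate over all 11 heifers the median was -0.13, and 1 of the 200 genes had an unadjusted p under 0.05, against 2.89%. These fits were added after the data had been seen, and no gene of the 200 differed with outcome beyond the adjusted threshold in any of them.

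**Figure D5:**
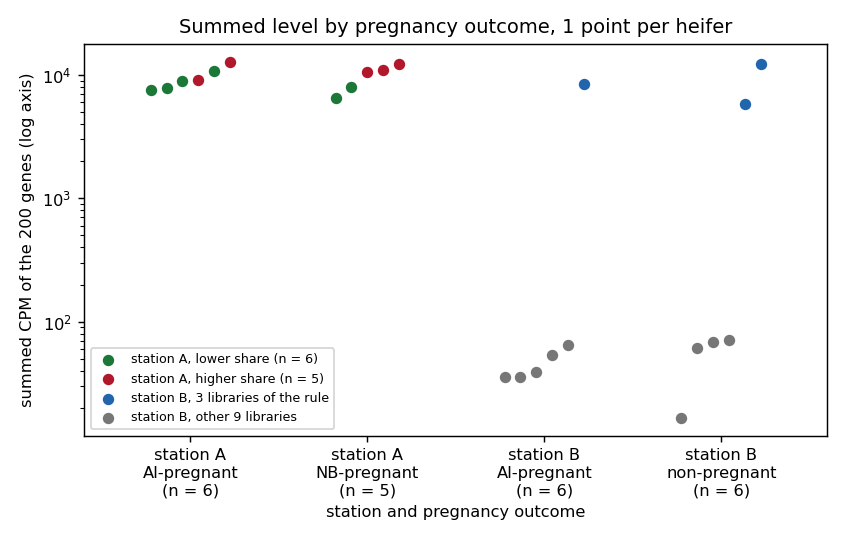
Summed CPM of the 200 genes (y axis, log scale) in each heifer by station and pregnancy outcome, coloured by set of libraries. In station A both outcome groups lie between 6564 and 12789 CPM, and in station B both hold libraries at 71.3 CPM or less and libraries at 5850 CPM or more.

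In station B the comparison of outcomes depended on which heifers held the 3 libraries of the rule, and it was not tested over all 12. The summed level of the 200 genes was 1440 CPM ± 3417 (SD, n = 6) in AI-pregnant heifers, 1 of which was SL253808, and 3059 CPM ± 5080 (SD, n = 6) in non-pregnant heifers, which included SL253804 and SL253811. Without the 3 libraries it was 45.6 CPM ± 12.8 (SD, n = 5) and 54.6 CPM ± 25.7 (SD, n = 4), with medians of 38.8 and 65.3 CPM. The lowest of the non-pregnant heifers, SL253805 at 16.6 CPM, weighed on that mean, and without it the other 3 had 67.3 CPM ± 4.999 (SD, n = 3). Their range of 61.7 to 71.3 CPM overlapped that of the AI-pregnant heifers, 35.5 to 64.4 CPM. SL253805 was left out after the values had been seen, and no AI-pregnant heifer was left out in turn. No difference between outcomes is read from the sums without it. Over these 9 libraries, the quasi-likelihood test needed a mean of 5 counts per gene, which none of the 200 reached. Without that filter all but 1 of the 200 genes could be tested. None of them had an adjusted p under 0.05 in edgeR, against 0.00586% of all genes tested that were higher in non-pregnant heifers, and 5 had an unadjusted p under 0.05, all higher in non-pregnant heifers, against 1.35%. The median log2 fold change was 0.32 over those of the 200 genes that could be tested and 0.01 over all genes tested. The median of 16 pairs per gene over the 9 libraries limits which differences between outcomes could be detected. The rule also held every value of the 200 genes in these 9 libraries at 1 CPM or less. A gene above that in any heifer of either outcome could not enter, which was not required of the other genes tested. Nothing is therefore read from the counts of the 200 genes against those of all genes.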

How the data were processed

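RNA of PWBC was sequenced with a stranded mRNA kit (TruSeq), 1 library per heifer. Per the study's methods, the authors placed the pairs on the UMD 3.1 assembly, removed pairs with several alignments, 5 or more mismatches or marked as duplicates, and counted the rest on Ensembl genes with HTSeq. The aligner and the strand setting of the counting are not given in the sources used here, so overlapping genes, antisense genes and near-identical copies remain uncertain. The deposited counts are whole numbers without normalization. FPKM of the retained genes were computed by the authors, and those of station A were used for levels per length and gene lengths. Columns of no sample numbered 0.

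CPM were computed on the total counts of each library, and 0.1 CPM was added before log2 ratios. The genes, the lists and the tests were chosen with earlier results of these data known. Outcomes were fitted with edgeR's quasi-likelihood test (robust, TMM factors, Benjamini-Hochberg adjustment at 0.05), in station A over the 12128 genes that the authors retained (above 1 CPM in at least 6 libraries), and in the 9 station B libraries over genes with a mean of 5 or more counts. Standard errors were obtained by dividing the absolute log2 fold change by the root of F. Labels give 1 heifer per library, so the replicates are animals. In simulated counts with 200 genes changed 4-fold, the test called 157 of them and 4 unchanged genes in station A (12128 genes), and 169 and 10 in the 9 libraries (11388 genes). The changed genes were drawn at random and are not the 200 described here. Genes varied independently in the simulation, so the library profiles of station A were not part of it. None of the 200 genes described here was among the 11388, so the result in the 9 libraries does not cover them.

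Genes named in the text were taken from a rule: the greatest station A means, the lowest and highest ratios of the 9 to the 3 libraries, the smallest and largest CVs, the 2 smallest p in each direction of the outcome test, and the genes at the limit of the rank. Of the 32 genes it gives, the first of each kind are described, since the identifiers have no symbols. ENSBTAG00000004268, ENSBTAG00000010497, and the shortest and longest gene were named after their values were seen, as were the genes at ranks outside the 200. Marker lists, 28 gene lists, promoter motifs and sequences could not be applied without names or a genome and were not analysed here. Alternatives were other library sizes, other limits in the rule, DESeq2, other filters, a covariate, other pseudocounts and each library left out. Fits used edgeR 4.0.16, DESeq2 1.42.0 and limma 3.58.1 in R 4.3.3, and other values Python 3.11.15 (pandas 2.3.3, numpy 2.4.6, scipy 1.17.1, matplotlib 3.10.9).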

Additional observations from a re-analysis of the deposited data

Results flagged for a closer look

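In 68 sets of values (the summed level and the named genes, by outcome group), 7 held a sample far from the others by Dixon's criterion, which chance gives in about 1 of 20 sets. The AI-pregnant heifer SL220772 of station A was the highest of its group for ENSBTAG00000040190 (173.5 CPM, next 108.0), ENSBTAG00000019517 (76.3 CPM, next 33.9), ENSBTAG00000026429 (38.5 CPM, next 26.0) and ENSBTAG00000012512 (49.6 CPM, next 39.3). For ENSBTAG00000012512 the NB-pregnant heifer SL220767 was also apart, at 42.3 CPM with the next at 35.1 CPM. ENSBTAG00000020943 was lowest in the AI-pregnant heifer SL220771, at 29.9 CPM with the next at 43.8 CPM, and ENSBTAG00000019018 was highest in the AI-pregnant heifer SL220765, at 52.9 CPM with the next at 25.9 CPM. SL220767, SL220771 and SL220772 are among the 5 libraries with the higher share of counts in the 100 most abundant genes.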

How the results depend on the processing

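The choice of the genes depended on the limit of the rule: 76 of the 200 stayed with 0.5 CPM in place of 1 CPM, and 134 to 194 under the other settings of the rule. With TMM library sizes at most 2 of the 200 exceeded 1 CPM in any of the 9 libraries, and with totals that leave out the 100 most abundant genes at most 15, where the median sum in station A rose from 9099 to 11994 CPM. The median log2 ratio of the 9 to the 3 libraries was -5.63 with 0.5 CPM added and -7.50 with 0.01 CPM, and -7.17 to -6.56 with each station B library left out. In station A every fit tested all 200 genes, and none of them had an adjusted p under 0.05 in any fit. In the 9 libraries the fit without a filter tested all but 1 of the 200, and none had an adjusted p under 0.05. The other fits of the 9 libraries tested few or none of the 200 genes, so nothing is read from the absence of calls there. At an unadjusted p under 0.05 in station A there were 3 without normalization factors (112 of all 12128 genes), 1 with DESeq2 (187), 6 with a covariate for the first principal component (691), 1 with the set of libraries as a covariate (350), 14 within the 6 libraries (377), 5 within the 5 (258), and 0 to 9 with each library left out, the most without the AI-pregnant heifer SL220771 (346 of 12057 genes). In the 9 libraries there were 5, without a filter. The median log2 fold change of the 200 in station A was 0.0031 without SL220767 and 0.32 without SL220772, and -0.09 with the first principal component. Within the 6 libraries the log2 fold change of ENSBTAG00000021041 was -0.14 and that of ENSBTAG00000007660 -0.047, and within the 5 that of ENSBTAG00000010521 was 0.013, each opposite to the whole station. The cause was not tested. No paired analysis was possible because the libraries come from different heifers that the labels do not pair, and a replicate number given in the order of the samples only names a library. The relation of the genes to the share of counts in the 100 most abundant genes was not computed, because the station A libraries fall into separate sets. In the 9 libraries the 200 genes held 104 to 653 pairs per library, which limits the precision of their values there.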
